A study of Mus musculus with 12 samples.

Results

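The 74 genes described here carried the pathway term pyrimidine metabolism in the gene table that the authors deposited for BV2 cells. They were chosen by that annotation and not by any measured value. Of 22935 listed genes, 87 held the term. From these, 12 that also held the term DNA replication or cell cycle were set aside, and Cmpk2 was left out. The 74 comprised 46 enzymes and 28 RNA polymerase subunits, and 70 of the 74 had enough counts to be tested.

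Pyrimidine nucleotides are made de novo from simple precursors, with UMP as the first complete nucleotide, or are rebuilt from free nucleosides by salvage kinases. Ribonucleotide reductase, thymidylate synthase and their partners turn part of this supply into the dCTP and dTTP used for DNA, while the RNA polymerases draw on UTP and CTP, which is why their subunits share the pathway term. In microglia, extracellular UDP and UTP also act as signals, released by damaged cells and broken down by ectonucleotidases.

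BV2 is an immortalised mouse microglial line, here grown in medium with 10% fetal bovine serum. All 9 libraries analysed came from cells given 10 µM oxyhaemoglobin (oxy-Hb), the haemoglobin form that red cells release into a bleed. Of these libraries, 3 had oxy-Hb alone, 3 had oxy-Hb with C3a, the peptide ligand of the complement receptor C3aR, and 3 had oxy-Hb with C3aRA, an abbreviation the labels leave unexplained. C3a is labelled as 20 ug/ul, a doubtful unit given how much peptide that would be, and C3aRA as 50 µM. The labels give no exposure time, and the series title sets the work in subarachnoid haemorrhage and the C3/C3aR pathway. A further 3 samples, with PBS, were not used here, and the effect of oxy-Hb is not among the comparisons. Nothing in the labels states that replicates came from different cultures. The p-values therefore measure the spread between these libraries, which may be technical.

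Library totals ran from 12934794 to 20479002 counts, and 3 counts in a library equalled 0.146 to 0.232 CPM, which are counts scaled to a common library total. This floor reflects counting error alone. All 12 microglia or macrophage markers were listed. They summed to 1924 to 2117 CPM with oxy-Hb, 2154 to 2709 with C3a and 2072 to 2197 with C3aRA, but the homeostatic markers P2ry12 and Tmem119 stayed at or below 3.76 CPM. Summed markers of astrocytes, neurons, endothelial cells or fibroblasts, and red cells reached at most 1.66 CPM in any library. Of these lists 1 of 4, 1 of 4, 1 of 5 and 2 of 5 genes were in the tables, and those used were Gfap, Tubb3, Pecam1, and Hba-a1 with Alas2. C3a replicate 2 stood apart, with a first principal component score of 53.2 against -17.3 to 10.6 in the other 8 libraries. In bulk RNA, fewer cells of a type and less RNA per cell cannot be told apart.

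Most of the pathway was transcribed in these cells. Levels of different genes were compared as CPM per kilobase of the longest annotated transcript, averaged over the 9 libraries, and on that scale the median of the 74 genes was 15.9. The highest was Polr1d at 94.5, a subunit shared by RNA polymerases I and III, followed by the RNA polymerase II subunit Polr2g at 81.3. Among enzymes the top levels were those of Cmpk1 at 75.2, the kinase that phosphorylates UMP and CMP, Rrm1 at 74.8, the large subunit of ribonucleotide reductase, and Dtymk at 68.6, thymidylate kinase. Enzymes of nucleoside breakdown were low, with Upp2 at 0.378, Tymp at 0.556 and Upp1 at 1.89 CPM per kilobase. The 4 genes that could not be tested were near the floor: Nt5c1b had 1 count over all libraries, and Entpd4b, Nme2 and Pnp2 had at most 8, 11 and 8 counts in a library. Nme2 lies next to its near-identical copy Nme1, and Pnp2 overlaps Pnp, so reads of these pairs may have been divided between copies by the authors' counting.

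**Figure D1:**
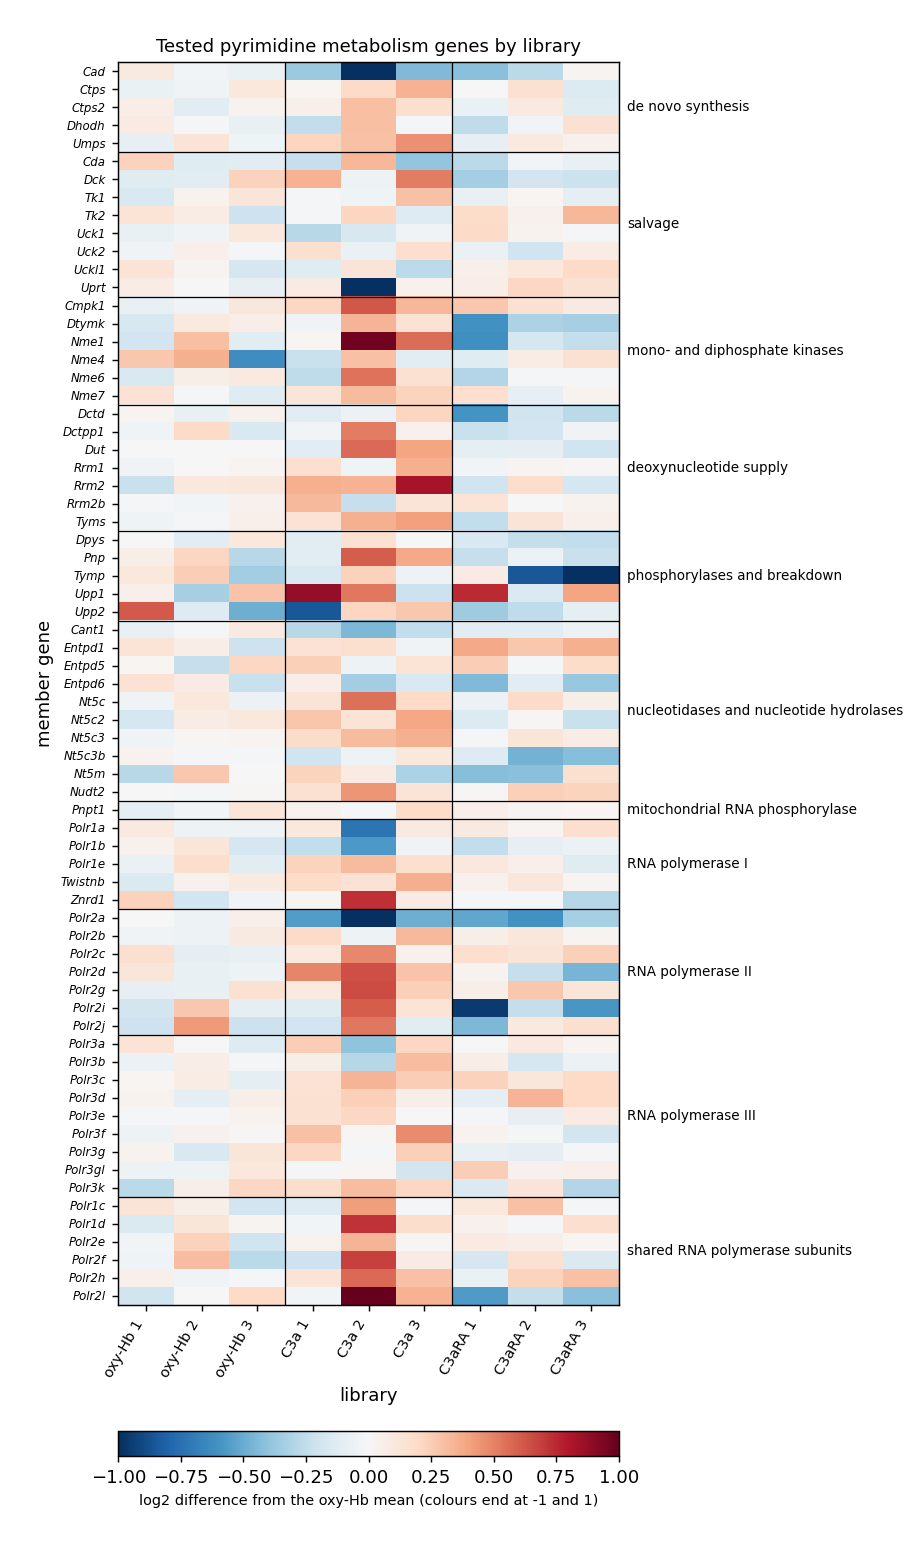
Log2 difference of each of 69 tested genes from its oxy-Hb mean (rows, grouped by role) in each of the 9 libraries (columns). Colours end at -1 and 1. Medians over all 70 tested genes are 0.06, 0.25 and 0.15 in the C3a columns and -0.07, 0.00 and 0.01 in the C3aRA columns, and C3a replicate 2 holds the deep blue of Cad, Uprt and Polr2a and the deep red of Nme1 and Polr2l.

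The comparison of C3a with C3aRA, both on top of oxy-Hb, asked which transcripts differed between the receptor's ligand and the second agent. Here 5 pyrimidine genes differed, all higher with C3a, by edgeR's quasi-likelihood test with Benjamini-Hochberg adjustment over all 14146 tested genes and a threshold of 0.05. They were Dtymk, Rrm2, Nme1, Polr2d and Polr2l. That is 7.14% of the 70 tested, beside 6.19% of all tested genes called in either direction with 2.87% called higher and 3.32% lower. The share among pyrimidine genes was thus near the background. Log2 fold changes were above 0 for 55 of the 70 genes, against 50.7% of all tested genes, with a median of 0.18 against 0.01. Leaving out C3a replicate 2 gave 49 of 70 above 0 and a median of 0.14. With transcript length and GC content corrected as well, 47 were above 0 and the median was 0.10. Groups did not overlap for 20 genes higher and 4 lower with C3a, beside 14.1% and 14.7% of all genes.

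Dtymk encodes thymidylate kinase, which phosphorylates dTMP on the way to dTTP (chromosome 1, 93792576 to 93801934, minus strand, GRCm38). Its level was 67.8, 80.9 and 79.2 CPM with oxy-Hb, 73.7, 95.8 and 84.0 with C3a, and 49.6, 60.8 and 59.95 with C3aRA. Every C3aRA library lay below every library of the other groups, while the oxy-Hb and C3a libraries overlapped. Between C3a (84.5 ± 11.1, SD, n = 3) and C3aRA (56.8 ± 6.22, n = 3) the log2 fold change was 0.57 ± 0.13 (SE, edgeR adjusted p = 0.0224). Against oxy-Hb (76.0 ± 7.15, n = 3) it was 0.15 ± 0.13 with C3a (edgeR adjusted p = 0.476) and -0.42 ± 0.13 with C3aRA (edgeR adjusted p = 0.479). The last had the lowest p of the pathway in its comparison.

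Rrm2 encodes the small subunit of ribonucleotide reductase, the enzyme that makes deoxynucleotides and whose small subunit is made mainly in S phase (chromosome 12, 24708241 to 24714146, plus strand). It stood at 76.4, 96.1 and 96.8 CPM with oxy-Hb, 115, 113 and 158 with C3a, and 77.5, 101 and 78.8 with C3aRA. All 3 C3a libraries exceeded the other 6, which overlapped each other. The log2 fold change was 0.59 ± 0.15 against C3aRA (edgeR adjusted p = 0.0387) and 0.52 ± 0.15 against oxy-Hb (edgeR adjusted p = 0.0691). The means were 129 ± 25.6 CPM (SD, n = 3) with C3a, 89.8 ± 11.6 with oxy-Hb and 85.8 ± 13.2 with C3aRA. After correcting for length and GC content of transcripts, the adjusted p for Rrm2 against C3aRA was 0.0585, in a fit that called 8 of the 70 genes and 8.52% of all.

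Nme1 encodes a nucleoside diphosphate kinase, which carries out the last phosphorylation to the triphosphates (chromosome 11, 93956979 to 93968521, minus strand). The libraries read 11.7, 16.7 and 12.3 CPM with oxy-Hb, 13.6, 26.6 and 20.0 with C3a, and 8.57, 11.8 and 11.3 with C3aRA. C3a and C3aRA did not overlap, and both overlapped oxy-Hb. The log2 fold change between them was 0.92 ± 0.23 (edgeR adjusted p = 0.0355). It was 0.66 ± 0.20 (adjusted p = 0.0243) without C3a replicate 2, the highest library.

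The other called genes encode RNA polymerase subunits. Polr2d, the stalk subunit of RNA polymerase II (chromosome 18, 31789159 to 31796642, plus strand), had 15.2, 13.2 and 13.4 CPM with oxy-Hb, 19.7, 22.0 and 17.1 with C3a, and 14.2, 11.8 and 9.94 with C3aRA. All 3 C3a libraries were above the other 6. Its log2 fold change against C3aRA was 0.72 ± 0.17 (edgeR adjusted p = 0.0284), and against oxy-Hb 0.49 ± 0.17 (edgeR adjusted p = 0.102). Polr2l, a small subunit common to RNA polymerases I, II and III (chromosome 7, 141471860 to 141475132, minus strand), had 13.6, 15.7 and 18.1 CPM with oxy-Hb, 15.4, 35.5 and 20.1 with C3a, and 10.5, 13.3 and 11.6 with C3aRA. The C3a and C3aRA libraries did not overlap, and C3a replicate 2 was the highest of all. The log2 fold change against C3aRA was 1.01 ± 0.26 (edgeR adjusted p = 0.0365), and 0.58 ± 0.18 (adjusted p = 0.0261) without that library.

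**Figure D2:**
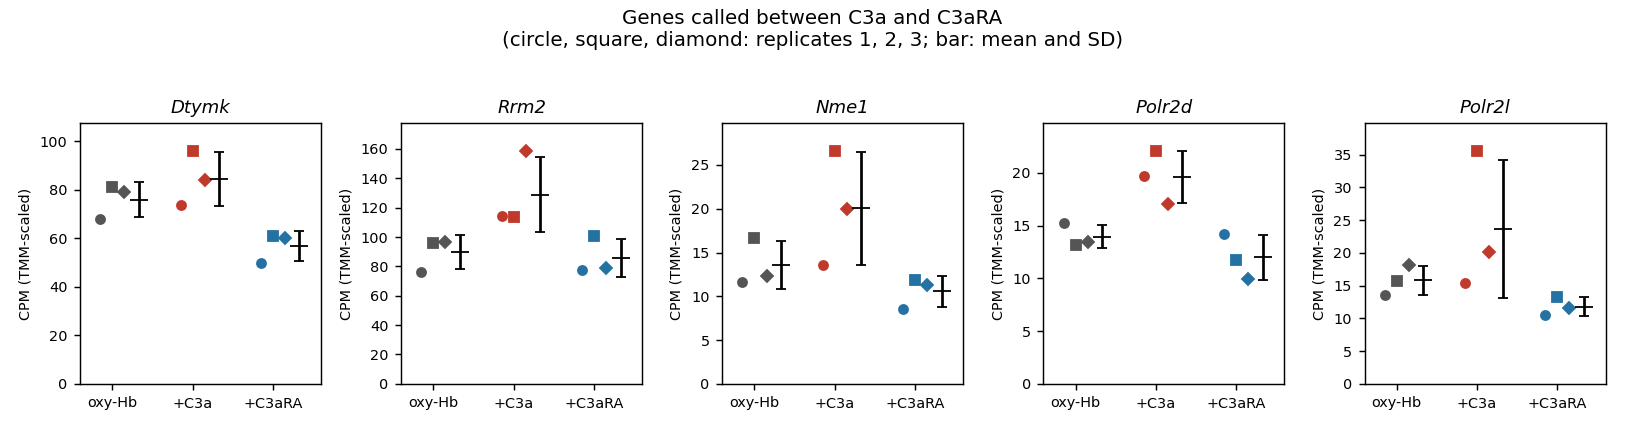
Level in CPM (vertical axis, from 0) of the 5 genes that differed between C3a and C3aRA, for the 3 libraries of each group (circle, square and diamond are replicates 1, 2 and 3), with mean and SD (n = 3). C3a lies above C3aRA without overlap in each panel, and C3a replicate 2 (square) is the highest library for all but Rrm2.

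These calls depended on which libraries entered the fit. Left out one at a time, an oxy-Hb library left 3, 1 or 2 of the pathway's genes called and a C3aRA library left 0. Leaving out a C3a library gave 8, 11 and 2. The shares of all genes called moved as well. They were 3.84%, 2.68% and 3.94% without an oxy-Hb library, and 0.361%, 1.19% and 1.02% without a C3aRA library. Without a C3a library they were 11.4%, 12.5% and 2.88%. In a fit of the C3a and C3aRA libraries alone none was called, with adjusted p from 0.0731 for Dtymk to 0.0952 for Polr2l, and 0.875% of all genes were called. In every one of the 21 alternatives the 5 log2 fold changes kept their sign, and Dtymk passed in 17, Polr2d in 16, and Nme1, Rrm2 and Polr2l in 12 each.

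Without C3a replicate 2 the 5 genes all passed, and 6 more were called higher with C3a than with C3aRA: Dck, Dctd, Nt5c2, Polr3f, Rrm1 and Umps. These 11 of 70 compare with 12.5% of all genes called in that fit, 5.97% higher. Dck, which phosphorylates deoxycytidine and was 36.4, 27.5 and 40.7 CPM with C3a and 22.4, 24.8 and 24.4 with C3aRA, had a log2 fold change of 0.54 ± 0.16 with all 9 libraries (edgeR adjusted p = 0.0549). It was 0.68 ± 0.14 without replicate 2 (edgeR adjusted p = 0.000816). In that fit Rrm1 stood 0.26 ± 0.07 and Umps 0.31 ± 0.10 log2 units higher with C3a than with C3aRA.

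The 7 genes grouped as deoxynucleotide supply include Dctpp1, which breaks down dCTP. They had the highest median among the roles with more than 1 gene in this comparison, 0.35. All 7 had log2 fold changes above 0, though Rrm2 alone was called. Their summed level was 813 to 983 CPM in the C3a libraries, above both the 725.5 to 767 CPM of oxy-Hb and the 698 to 758 CPM of C3aRA. This was not particular to the role. All 74 genes summed to 4407 to 4818 CPM with C3a, 4103 to 4243 with oxy-Hb and 4096 to 4228 with C3aRA. Sums for RNA polymerase III, the mono- and diphosphate kinases, the nucleotidases, and the purine synthesis, folate and S phase lists were also highest with C3a without overlap. In the other roles the C3a sums overlapped those of oxy-Hb. Tyms, which makes dTMP from dUMP, was 62.3, 71.9 and 75.0 CPM with C3a and 47.3, 61.4 and 58.3 with C3aRA, without overlap (log2 fold change 0.32 ± 0.12, edgeR adjusted p = 0.126). Dut, which removes dUTP and yields dUMP, read 59.6, 95.1 and 84.6 CPM against 60.5, 60.5 and 55.8, where C3a replicate 1 fell inside the C3aRA range (0.44 ± 0.14, edgeR adjusted p = 0.0834). For Dctd, which deaminates dCMP to dUMP, the values were 52.8, 54.8 and 66.1 CPM with C3a and 37.5, 49.5 and 47.3 with C3aRA (0.37 ± 0.13, edgeR adjusted p = 0.104). The Dctd levels with C3a overlapped those with oxy-Hb, and every C3aRA library lay below both groups. Rrm2b, the alternative small subunit of the reductase, differed by 0.04 ± 0.13 (edgeR adjusted p = 0.887).

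The promoters of Dtymk, Rrm2 and Polr2l are shown because these transcripts were among the 5 called higher with C3a than with C3aRA. Those of Nme1 and Polr2d are not shown. Each run holds the 200 bases before the start of the gene in the deposited tables or in RefSeq, whichever lies further upstream, 5′ to 3′ on the gene's strand, from RefSeq's promoter table on GRCm38.p6. Capitals mark matches on either strand to the CCAAT box (CCAAT, or ATTGG on the opposite strand) or to the palindromic E-box CACGTG. The Dtymk window is chr1:93801935-93802134 on the minus strand, the Rrm2 window chr12:24708041-24708240 on the plus strand, and the Polr2l window chr7:141475154-141475353 on the minus strand.
Dtymk: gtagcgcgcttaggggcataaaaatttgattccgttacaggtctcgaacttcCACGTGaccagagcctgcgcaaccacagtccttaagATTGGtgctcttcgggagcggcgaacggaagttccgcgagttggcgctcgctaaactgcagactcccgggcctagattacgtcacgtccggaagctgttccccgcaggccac
Rrm2: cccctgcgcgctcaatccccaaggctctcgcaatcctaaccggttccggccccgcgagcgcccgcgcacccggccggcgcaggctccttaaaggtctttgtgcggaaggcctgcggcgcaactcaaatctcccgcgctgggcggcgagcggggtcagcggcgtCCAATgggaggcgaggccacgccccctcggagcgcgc
Polr2l: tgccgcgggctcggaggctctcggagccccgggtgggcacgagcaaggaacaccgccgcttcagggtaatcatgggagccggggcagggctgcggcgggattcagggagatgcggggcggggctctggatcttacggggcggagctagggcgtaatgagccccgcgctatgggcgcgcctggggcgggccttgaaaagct

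The Dtymk and Rrm2 windows each held 1 CCAAT box, Dtymk also held 1 E-box, and Polr2l had no match. Over windows of 300 bases, from 250 before to 50 after the RefSeq start, a CCAAT box lay in 22 of the 64 pathway genes that the table held, 34.4%, and in 37.4% of 32851 promoters. The E-box lay in 8 of the 64, 12.5%, against 7.15% of all. These were Dtymk, Entpd4b, Nme1, Polr2h, Polr3c, Polr3e, Polr3gl and Tyms. The letters TTTCCCGC, TTTCGCGC, TTTGGCGC or TTTGCCGC, forms of the E2F site, lay in 5 of the 64, 7.81%, against 2.26%, and these were Polr2a, Polr2c, Polr2j, Upp2 and Znrd1. A match is a description of these letters and not a site shown to be used.

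The comparison of C3a with oxy-Hb alone asked what the ligand added to the oxy-Hb state. No pyrimidine gene was called among 70, whereas 3.94% of all tested genes were, 0.905% higher and 3.04% lower, by edgeR at an adjusted p below 0.05. At an unadjusted p under 0.05 there were 19 pathway genes and 3411 genes in all. DESeq2's Wald test called 4 of the pathway, Cmpk1 and Rrm2 higher and Cad and Polr2a lower. That is 5.71% of the 70, beside 9.52% of all genes called by that test. Log2 fold changes were above 0 for 54 of the 70 genes with a median of 0.16, against 50.2% and 0.00 over all genes. Without C3a replicate 2 they were above 0 for 47 of 70 with a median of 0.10, and for 46 with a median of 0.09 when transcript length and GC content were corrected as well. Scaling by total count gave 44 of 70 and medians of 0.07 and -0.09, and the calls over all genes then divided into 34 higher and 664 lower, against 128 and 430. Groups did not overlap for 13 genes higher with C3a and 3 lower, beside 13.2% and 14.6% of all tested genes. Without C3a replicate 2, 10 pathway genes were called, 8 higher and Cad and Polr2a lower, where 9.55% of all genes were called.

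Polr2a, the catalytic large subunit of RNA polymerase II, had the lowest p. It read 131, 127 and 136 CPM with oxy-Hb, 89.1, 43.3 and 93.6 with C3a, and 91.5, 86.2 and 104 with C3aRA. Every library with either addition lay below every oxy-Hb library. The log2 fold change with C3a was -0.81 ± 0.22 (edgeR adjusted p = 0.0618) and with C3aRA -0.49 ± 0.22 (edgeR adjusted p = 0.605). Without C3a replicate 2, the lowest library, the values were -0.53 ± 0.09 (adjusted p = 0.000163) and -0.48 ± 0.08 (adjusted p = 0.00112). Under the correction for length and GC content, Polr2a was called against oxy-Hb for neither agent with all libraries. With that replicate left out as well, it was called lower for both. The authors' deposited table lists -0.80 with C3a (adjusted p = 0.0191) and -0.48 with C3aRA (adjusted p = 9.3e-06) for Polr2a. The remaining 6 subunits found only in RNA polymerase II had log2 fold changes above 0 with C3a, and Polr2b, the second large subunit, had 0.16 ± 0.11 (edgeR adjusted p = 0.376).

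Among the 5 enzymes of de novo synthesis, Cad and Umps stood on opposite sides. Cad, the fused enzyme of the first steps, read 84.1, 77.4 and 75.4 CPM with oxy-Hb, 60.9, 29.6 and 58.0 with C3a, and 59.1, 65.4 and 80.3 with C3aRA. All 3 C3a libraries were below all 3 oxy-Hb libraries, with a log2 fold change of -0.68 ± 0.22 (edgeR adjusted p = 0.0943). Umps, whose bifunctional product completes UMP, read 73.2, 84.8 and 75.3 with oxy-Hb, 90.0, 95.5 and 106 with C3a, and 73.2, 83.2 and 80.0 with C3aRA. Here the C3a libraries were above all the others, at 0.32 ± 0.11 against oxy-Hb (edgeR adjusted p = 0.0996). Without C3a replicate 2, Cad fell by 0.41 on the log2 scale (adjusted p = 0.0135) and Umps rose by 0.33 (adjusted p = 0.0269) against oxy-Hb. With the correction for length and GC content in that fit, Cad was at -0.18 ± 0.10 (adjusted p = 0.297), and with all libraries at -0.38 ± 0.17 (adjusted p = 0.216). Umps was called against oxy-Hb in neither of these corrected fits. Dhodh, the mitochondrial dehydrogenase of the pathway, was at 0.03 ± 0.16 with C3a, and the CTP synthases Ctps and Ctps2 at 0.19 ± 0.12 and 0.17 ± 0.11 (edgeR adjusted p = 0.327 to 0.916 over the 3).

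**Figure D3:**
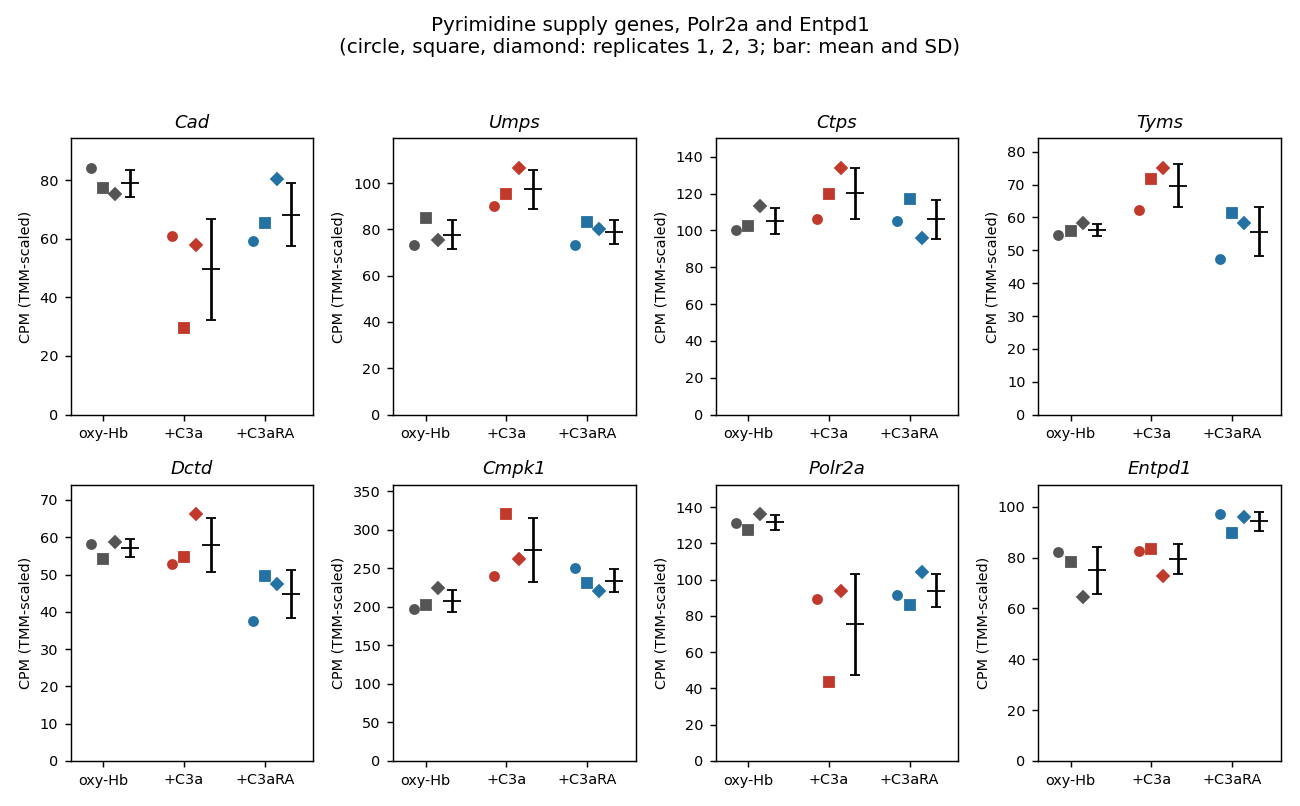
Level in CPM (vertical axis, from 0) of 8 pathway genes in the 3 libraries of each group (circle, square and diamond are replicates 1, 2 and 3), with mean and SD (n = 3). Polr2a lies lower with either addition than with oxy-Hb alone, Cad is lowest in C3a replicate 2 at 29.6 CPM, and Entpd1 is highest with C3aRA.

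Cmpk1, which forms UDP and CDP, had 197, 203 and 224 CPM with oxy-Hb, 240, 320 and 262 with C3a, and 251, 231 and 220 with C3aRA. The C3a libraries all exceeded the oxy-Hb libraries (log2 fold change 0.40 ± 0.12, edgeR adjusted p = 0.0682), and overlapped those of C3aRA. Without C3a replicate 2, Cmpk1 rose by 0.27 against oxy-Hb (adjusted p = 0.0292). With the correction for length and GC content in that fit it was at 0.12 ± 0.07 (adjusted p = 0.280), and with all libraries at 0.30 ± 0.11 (adjusted p = 0.128). The other nucleoside diphosphate kinase genes Nme4, Nme6 and Nme7 had log2 fold changes of -0.06, 0.18 and 0.22 with C3a (edgeR adjusted p = 0.307 or above).

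Salvage genes showed no common direction. Of 8, 4 had log2 fold changes above 0 with C3a against oxy-Hb and 4 against C3aRA, with medians of -0.02 and -0.05. Tk1, the cytosolic thymidine kinase of S phase, read 55.9, 63.7 and 67.8 CPM with oxy-Hb, 61.9, 60.4 and 76.3 with C3a, and 59.2, 63.0 and 58.4 with C3aRA, with all groups overlapping (0.08 ± 0.12 against oxy-Hb, edgeR adjusted p = 0.710). Its mitochondrial counterpart Tk2 was at 0.02 ± 0.16, the uridine-cytidine kinases Uck1, Uck2 and Uckl1 at -0.16, 0.09 and -0.08, and cytidine deaminase Cda at -0.07 (edgeR adjusted p = 0.441 to 0.949 over these 5). Dck was at 0.28 ± 0.16 (edgeR adjusted p = 0.280). Uprt, annotated as a uracil phosphoribosyltransferase, read 37.4, 16.5 and 36.4 with C3a, where replicate 2 alone was below the 33.3 to 40.9 CPM of the oxy-Hb and C3aRA libraries.

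**Figure D4:**
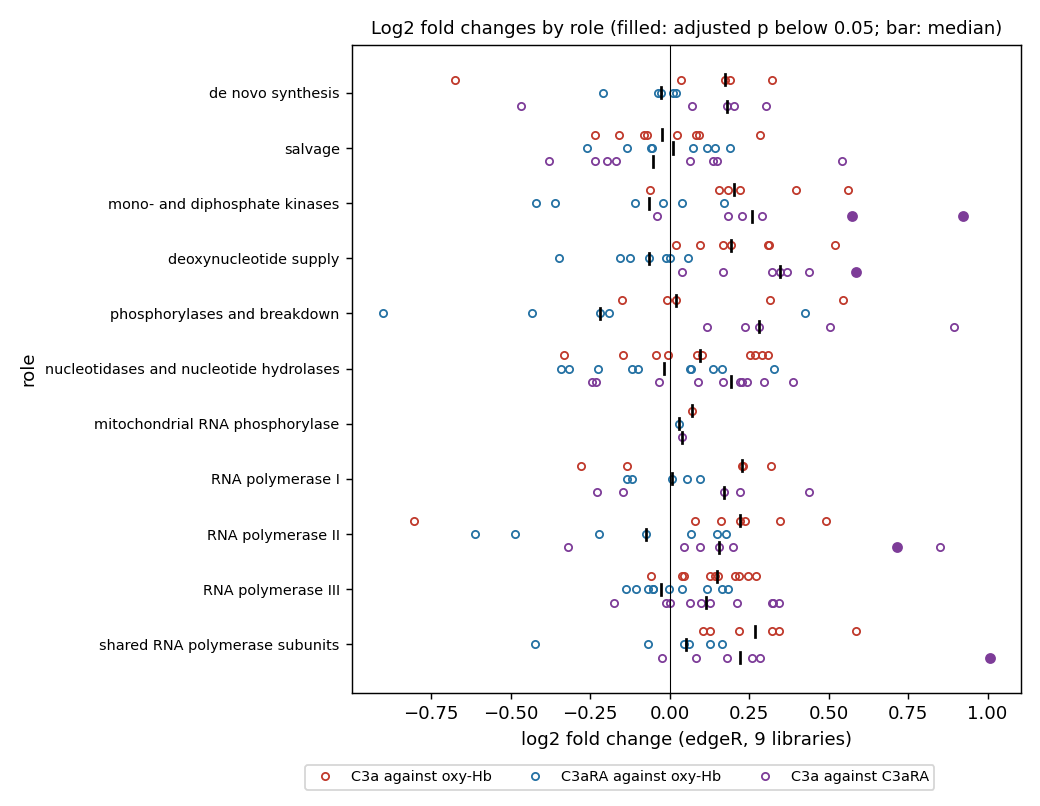
Log2 fold changes (horizontal axis, edgeR over 9 libraries) of the 70 tested genes by role, for the 3 comparisons in 3 colours, with filled points for adjusted p below 0.05 and black bars for medians. The only filled points are the 5 genes called between C3a and C3aRA, and Cad and Polr2a are the leftmost points of C3a against oxy-Hb.

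The differences in C3a replicate 2 followed transcript length. Across the 70 tested genes, the log2 difference of that library from the oxy-Hb mean had a Spearman correlation of -0.63 with transcript length, against 0.27 and 0.19 in C3a replicates 1 and 3. These are descriptions across genes, which share a library and are not independent. Over 14132 genes the value in replicate 2 was -0.39. The 17 pathway genes with transcripts shorter than 1500 bases had a median log2 difference of 0.53 in that library, and the 16 longer than 4000 bases one of -0.06. In replicates 1 and 3 the short genes had medians of -0.03 and 0.13 and the long genes 0.16 and 0.15. Cad and Polr2a, the lowest in that library, have transcripts of 7137 and 6740 bases, while the called genes Dtymk and Polr2d have 1055 and 1015. The longest annotated transcripts of the other called genes have 1650 bases for Polr2l, 2193 for Rrm2 and 3181 for Nme1. Polr2l and Nme1 were the highest of the 70 in that library, at 1.15 and 0.96. All lengths here are of the longest annotated transcript, which need not be the form most present in these cells. The part of transcript length in the values that rest on replicate 2 was not tested further than by the fits with the length correction and without that library.

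**Figure D5:**
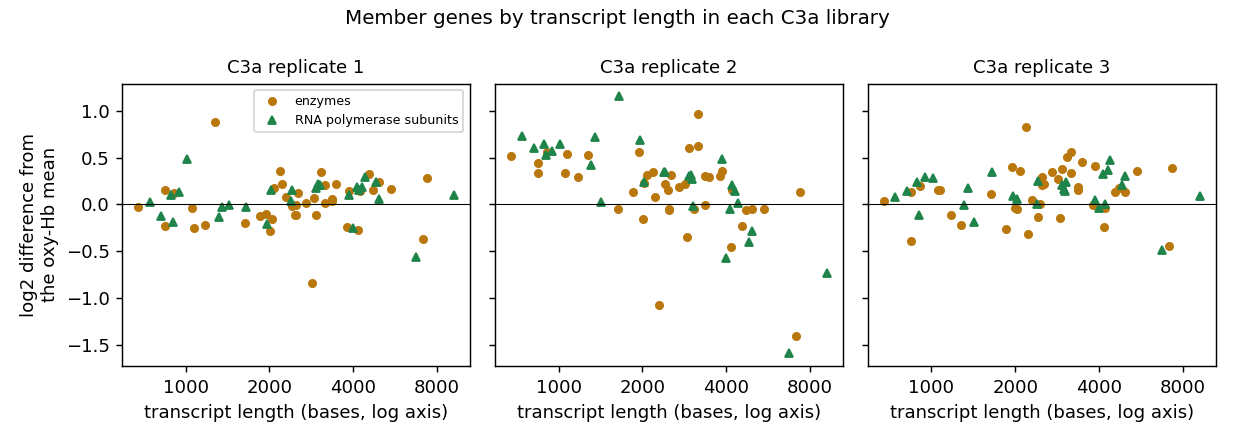
Log2 difference from the oxy-Hb mean (vertical axis) against transcript length in bases (horizontal log axis) for the 70 tested genes in each of the 3 C3a libraries, enzymes as circles and RNA polymerase subunits as triangles. The points slope downward in replicate 2 (Spearman -0.63) and not in replicates 1 and 3 (0.27 and 0.19).

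RNA polymerase subunits as a whole had a median log2 fold change of 0.21 with C3a against oxy-Hb, with 24 of 28 above 0 and 0 called. By enzyme, the medians were 0.23 for the 5 of RNA polymerase I, 0.22 for the 7 of RNA polymerase II, 0.15 for the 10 of RNA polymerase III and 0.27 for the 6 shared subunits. Leaving out C3a replicate 2 gave medians of 0.09, 0.06, 0.18 and 0.04 in the same order, and 0.13 over the 28. The 6 shared subunits summed to 378 to 600.3 CPM over the C3a libraries, against 365.5 to 438 with oxy-Hb, and the highest was replicate 2. The large subunits Polr1a and Polr1b of RNA polymerase I were at -0.13 ± 0.18 and -0.28 ± 0.14, and Polr3a and Polr3b of RNA polymerase III at 0.04 ± 0.16 and 0.05 ± 0.14 (edgeR adjusted p = 0.235 to 0.906 over the 4). The lowest p in the other sets belonged to Twistnb of RNA polymerase I (0.23 ± 0.11, edgeR adjusted p = 0.203), Polr3c of RNA polymerase III (0.25 ± 0.10, edgeR adjusted p = 0.155) and the shared Polr2h (0.34 ± 0.14, edgeR adjusted p = 0.151). Against C3aRA, Polr2i of RNA polymerase II read 7.82, 13.3 and 9.46 CPM with C3a and 4.17, 7.17 and 5.55 with C3aRA, without overlap (0.85 ± 0.25, edgeR adjusted p = 0.0611). Znrd1 of RNA polymerase I was at 0.44 ± 0.20 there (edgeR adjusted p = 0.190).

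The comparison of C3aRA with oxy-Hb alone called no gene in the pathway and none of 14146 (0%) by edgeR with all 9 libraries. At an unadjusted p under 0.05 there were 6 pathway genes and 1153 in all, and DESeq2's Wald test called 19 genes, limma-voom 0 and voom with library quality weights 401. Log2 fold changes were above 0 for 31 of 70 pathway genes and 48% of all genes, with medians of -0.03 and -0.01. Groups did not overlap for 3 genes higher and 9 lower with C3aRA, beside 11.9% and 11% of all genes. The count depended on C3a replicate 2, which is in neither group but enters the shared estimate of spread. Without that library 3.25% of all genes were called, with Entpd1 higher and Dtymk and Polr2a lower, and in a fit of the 6 libraries alone 4.43% were called, with these 3 in the same directions and Dctd lower. The authors' deposited table calls the same 4 of the 74 genes at an adjusted p below 0.05, where 3.12% of all listed genes pass. It calls 1 of the 74, Polr2a, with C3a, where 2.21% pass. Both comparisons with oxy-Hb share the oxy-Hb libraries.

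Entpd1 (CD39) encodes the ectonucleotidase that removes phosphates from extracellular nucleotides at the microglial surface. It read 82.1, 78.2 and 64.7 CPM with oxy-Hb, 82.6, 83.3 and 72.8 with C3a, and 97.0, 89.8 and 95.8 with C3aRA. The C3aRA libraries lay above the other 6. The log2 fold change of C3aRA against oxy-Hb was 0.33 ± 0.11 with 9 libraries (edgeR adjusted p = 0.496) and 0.33 ± 0.09 with the 6 libraries alone (edgeR adjusted p = 0.0284). Dctd read 58.1, 54.2 and 58.9 CPM with oxy-Hb against 37.5, 49.5 and 47.3 with C3aRA, a log2 fold change of -0.35 ± 0.13 (edgeR adjusted p = 0.524, and 0.0448 with the 6 libraries alone). For Dtymk the 6 libraries gave -0.42 ± 0.10 (edgeR adjusted p = 0.0101).

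Of the 12 nucleotidases and nucleotide hydrolases, Entpd1 among them, 10 were tested and none was called with all 9 libraries. Nt5c2, a cytosolic nucleotidase, read 75.0, 89.4 and 91.1 CPM with oxy-Hb, 103, 93.3 and 111 with C3a, and 77.1, 85.6 and 72.5 with C3aRA. C3a lay above the other groups without overlap, at 0.39 ± 0.12 against C3aRA (edgeR adjusted p = 0.0624), and it was the one gene of the pathway called against oxy-Hb under the correction for length and GC content, where 4.38% of all genes passed. Nt5c3, the pyrimidine nucleotidase, was 0.29 ± 0.11 higher with C3a than oxy-Hb (edgeR adjusted p = 0.137), and Cant1, a calcium-activated nucleotidase, -0.33 ± 0.13 (edgeR adjusted p = 0.147). Of the breakdown enzymes, Pnp was at 0.31 ± 0.20 and Dpys, dihydropyrimidinase, at 0.02 ± 0.12 with C3a against oxy-Hb, and Pnpt1, the mitochondrial polynucleotide phosphorylase, at 0.07 ± 0.10 (edgeR adjusted p = 0.345 to 0.940). Pnp was at 0.51 ± 0.20 against C3aRA (edgeR adjusted p = 0.143), and Dpys at -0.22 ± 0.12 with C3aRA against oxy-Hb (edgeR adjusted p = 0.685).

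Related genes outside the pathway term were counted in the same fit. Of all genes tested, 2.87% were called higher with C3a against C3aRA and 0.905% against oxy-Hb. Of 20 S phase genes, 5 were called higher with C3a than with C3aRA (median 0.25), among them Ccne2 (0.85 ± 0.20, edgeR adjusted p = 0.0278) and Slbp (0.52 ± 0.11, edgeR adjusted p = 0.0210). Against oxy-Hb 2 were called higher (median 0.22), Slbp and Rpa2. Cdt1, a licensing factor of replication origins, had the lowest log2 fold changes of the list, -0.45 ± 0.13 against C3aRA (edgeR adjusted p = 0.0557) and -0.43 ± 0.13 against oxy-Hb (edgeR adjusted p = 0.0764). In the fit without C3a replicate 2, 11 of the 20 were called higher against C3aRA and Cdt1 lower, beside 5.97% of all genes called higher. Of the 12 DNA polymerase and primase genes, 1 was called higher against C3aRA, Pole3 (0.46 ± 0.12, edgeR adjusted p = 0.0428), and the median was 0.03. Of 13 purine synthesis genes, 1 was called higher, Ppat, which catalyses the first committed step (0.49 ± 0.11, edgeR adjusted p = 0.0278), with a median of 0.03. With all 9 libraries none of 8 folate cycle and dNTP control genes was called (median 0.26), nor any of 6 nucleoside or nucleotide carriers (median -0.09). In the fit without C3a replicate 2, 4 of the 8 folate cycle and dNTP control genes were called higher against C3aRA. So were 4 of the 13 purine synthesis genes and 1 of the 12 DNA polymerase and primase genes, and 1 of the 6 carriers was called lower. Of the pyrimidine nucleotide receptors 2 were tested, and P2ry6, the UDP receptor, stood at 2.72, 2.97 and 4.55 CPM with C3a and 2.28, 1.95 and 1.21 with C3aRA (0.92 ± 0.37, edgeR adjusted p = 0.152). Of the 12 microglia or macrophage markers, 1 was called higher with C3a against oxy-Hb, Itgam (0.69, edgeR adjusted p = 0.0498), and 1 against C3aRA, Trem2 (0.44, edgeR adjusted p = 0.0495). Log2 fold changes were above 0 for 10 and 11 of the 12, and P2ry12 and Tmem119 were below 0 against oxy-Hb. Itgam read 41.6, 37.3 and 44.3 CPM with oxy-Hb, 51.9, 91.1 and 55.6 with C3a, and 56.4, 53.6 and 48.2 with C3aRA. Trem2 read 159, 223 and 178 with C3a and 127.5, 140 and 147 with C3aRA. C3a replicate 2 was the highest library for both. The part of these shifts, or of the S phase genes, in the pyrimidine values was not tested.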

How the data were processed

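RNA-seq of BV2 cells was analysed in 9 libraries, 3 per group (oxy-Hb alone, with C3a or with C3aRA), grouped by the labels. The authors deposited 2 tables of raw read counts per Ensembl gene, each with their own log2 fold changes, p-values and adjusted p-values. Per the submitters' processing notes, the builds were GRCm38 and mm10. The sources used here name no aligner, counter or strand setting. Without the strand setting, reads of overlapping genes cannot be told apart, and 30 of the 74 genes overlap another listed gene. The oxy-Hb counts of the 2 tables were identical (0 differed).

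The counts were tested with edgeR 4.0.16 (R 4.3.3) after filterByExpr with a minimum count of 10 and TMM scaling. The model had 1 coefficient per group over 9 libraries, with the robust quasi-likelihood F test. A gene was called at an adjusted p (Benjamini-Hochberg over all 14146 genes) below 0.05. The biological coefficient of variation was 15.8%. CPM values are TMM-scaled. Library differences are log2 with a pseudocount of 0.5 CPM. Transcript length and GC content came from the longest GENCODE M21 transcript. The fit was tested on simulated counts.

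Alternatives were other scalings and filters, DESeq2 1.42.0, limma-voom and quality weights (limma 3.58.1), a replicate block, a spline correction for length and GC content, fits of 2 groups, and leaving out each library. The length and GC correction without C3a replicate 2 was chosen after seeing the data. Genes were named if called, if on a panel of pathway enzymes and large polymerase subunits, or if lowest in p within a role. Polr3f, Uprt, Dctpp1, Nme4, Nme6, Nme7, Polr1d, Polr2g, Upp2, Tymp and the genes named from other lists were chosen after their values were seen. A result under this rule is not reported here. The genes and lists were chosen with earlier results of these data known. Promoter sequences are RefSeq's (GRCm38.p6), and 64 of 74 genes were found there.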

Additional observations from a re-analysis of the deposited data

How the results depend on the processing

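Without a count filter the pathway genes called were 2 (C3a against oxy-Hb) and 9 (C3a against C3aRA). In all, 1033 and 1296 of 22537 genes were called there, and 8 for C3aRA against oxy-Hb. DESeq2's Wald test gave 4 and 9, with 1346, 1559 and 19 genes in all (C3a against oxy-Hb, C3a against C3aRA, C3aRA against oxy-Hb). Quality weights gave 11, 13 and 2, with 1606, 1959 and 401 genes, and limma-voom 1 and 3, with 626 and 756 genes. Fits of 2 groups gave 99 and 118 genes in all for the C3a comparisons, with 0 pathway genes against C3aRA, and 603 genes and 4 pathway genes for C3aRA against oxy-Hb. For C3a against oxy-Hb, upper quartile scaling gave 1, with 607 genes, and a mean of at least 5 CPM gave 1, with 631 of 10107 genes. The length and GC correction gave 1 against oxy-Hb, with 619 genes, and 8 against C3aRA, with 1204 genes. With C3a replicate 2 also left out, that correction gave 3, 13 and 3, with 1139, 1986 and 649 genes. The cause of these shifts was not tested.

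The labels do not state whether replicate numbers pair the libraries. Same-numbered libraries correlated at -0.0761 to 0.237 in their deviations from group means, and differently numbered ones at -0.185 to 0.0923. Between oxy-Hb and C3a, the same-numbered libraries stood at 0.0784, 0.237 and 0.176. A pairing was not tested further than by the fit with a replicate block. The replicate block gave 2 pathway genes for C3a against oxy-Hb, Rrm2 and Polr2a, 7 against C3aRA and 0 for C3aRA against oxy-Hb. In all it gave 835, 1210 and 0 genes, beside 558, 876 and 0 without the block.

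Leaving out 1 library gave 0 to 10 pathway genes (54 to 1638 in all) for C3a against oxy-Hb, 0 to 11 (53 to 1827) for C3a against C3aRA, and 0 to 3 (0 to 475) for C3aRA against oxy-Hb. The 10 came without C3a replicate 1 or replicate 2, and the 475 without C3a replicate 2. Over all alternatives, 4091 values of single pathway genes or their medians were stable, 99 crossed to called, 36 lost the call, and 238 without a call moved or changed sign. A gene was stable if it kept its direction and side of the threshold, and a median if it shifted by less than the SD between libraries. The 36 all fell among the 5 genes called between C3a and C3aRA, the only pathway calls of the edgeR fit. Most of the 4091 were thus genes that stayed uncalled. Depth limited low genes such as Tymp, whose log2 fold changes had SEs of 0.54 to 0.57.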
